A study of Mus musculus with 9 samples.

Results

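The genes described here encode the proteins of the nuclear pore and the carriers that move cargo through it, followed in the developing mouse olfactory bulb. They were chosen by name: every gene of the array with 1 symbol that begins with Nup and a digit, Ipo and a digit, Xpo, Kpna or Kpnb, provided that 2 of the 9 arrays reached a log2 level of 5 in a probe set of that gene. The name rule took 39 genes, and 37 of them passed the level rule, out of 10864 genes of the series treated the same way. Kpna7, the importin alpha of oocytes and early embryos, and Nup210l, a relative of Nup210, never passed 3.03 and 1.98 and were left out. Nup35 and Kpna5 were not analysed here. Each member is represented by its probe set of highest mean.

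Olfactory bulbs were dissected from CD1 mice, an outbred stock, at E11, E12, E13, E14, E15, E16, E17, E18 and P0 (embryonic days, and the day of birth). No genotype or treatment was varied. Each age is 1 array of total RNA from the bulbs of 1 animal, amplified in 2 rounds, so that there are no replicates within an age and errors come from the scatter of 9 animals around a line. The values are log2 expression levels. They order the arrays for 1 gene and cannot be compared between genes, since probe sets differ in brightness.

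Nuclear pores are built from many copies of a set of nucleoporins. Scaffold nucleoporins form the Y complex and the inner ring, nucleoporins rich in phenylalanine-glycine repeats fill the central channel, and others make the cytoplasmic filaments, the nuclear basket and the membrane ring. Importins carry proteins in and exportins carry proteins and RNAs out, and the small GTPase Ran gives the direction. Pores are taken apart and rebuilt at each division of a vertebrate cell, while scaffold nucleoporins of non-dividing cells are known to be very long-lived. In mouse embryonic stem cells, differentiation to neurons is known to involve a change in which importin alpha is made.

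Most of these genes fell between E11 and P0, with 16 of 18 nucleoporins and 9 of 19 importins and exportins (here called carriers) past the test, a difference between these groups that was not tested. Of the 37 members, 25 had a falling slope with age, 1 rose and 11 did not pass (limma, adjusted p under 0.05 over all 10864 genes). In the background of all genes tested, 21.9% fell and 25.2% rose, so that 47.2% passed in either direction. Among the 18 nucleoporins 16 fell, 0 rose and 2 did not pass, and all 18 slopes were negative, so that at an unadjusted p under 0.05 the number that rose was also 0. Of the 19 importins and exportins 9 fell, 1 rose and 9 did not pass. The median change over the course, as the fitted slope times 8 days, was -1.23 log2 units for the nucleoporins, -0.43 for the carriers and 0.016 for all genes tested. Whether fewer cells of a type or less RNA per cell lay behind a fall cannot be told apart in RNA of whole bulbs.

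**Figure D1:**
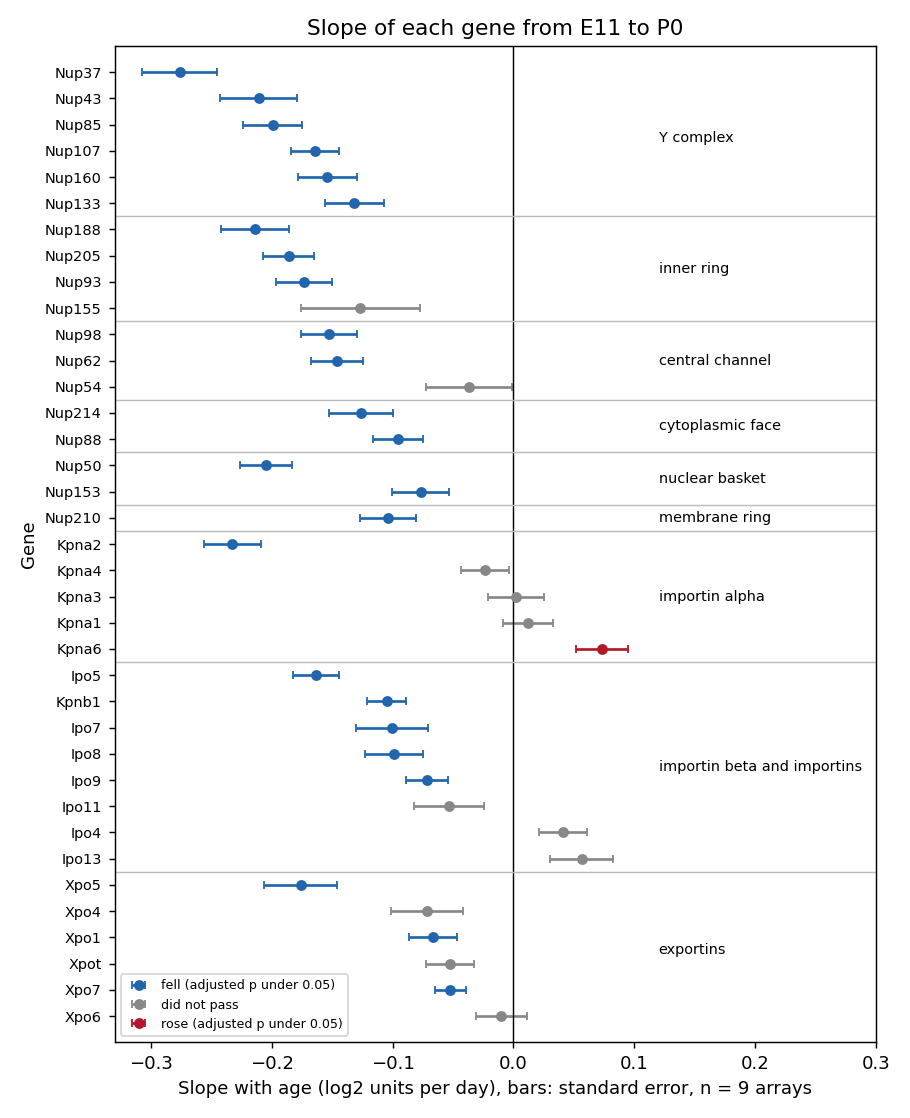
Fitted slope of each of the 37 genes in log2 units per day (horizontal axis) with its standard error over 9 arrays, grouped by place in the pore or kind of carrier. Blue points fell, the red point rose and grey points did not pass. All 18 nucleoporin slopes lie left of 0, and the importin alpha genes run from -0.23 for Kpna2 to 0.073 for Kpna6.

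Promoter windows are shown for 3 of the steepest falling members, Nup37, Kpna2 and Nup50, and for Kpna4, an importin alpha that did not pass, because they share the most common motif searched. The windows span 250 bases before to 50 after an annotated start, from RefSeq on GRCm38.p6, and capitals mark motif matches. They were Nup37 (first of its 2 windows, chr10:88146742-88147041, plus strand), Kpna2 (chr11:106999476-106999775, minus strand), Nup50 (chr15:84923178-84923477, plus strand) and Kpna4 (chr3:69127043-69127342, minus strand).
Nup37: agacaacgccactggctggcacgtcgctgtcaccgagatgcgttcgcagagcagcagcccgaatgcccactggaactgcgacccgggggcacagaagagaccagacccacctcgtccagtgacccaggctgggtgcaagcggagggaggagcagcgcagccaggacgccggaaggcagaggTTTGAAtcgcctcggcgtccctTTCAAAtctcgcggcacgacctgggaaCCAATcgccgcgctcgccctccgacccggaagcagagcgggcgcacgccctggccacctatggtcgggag
Kpna2: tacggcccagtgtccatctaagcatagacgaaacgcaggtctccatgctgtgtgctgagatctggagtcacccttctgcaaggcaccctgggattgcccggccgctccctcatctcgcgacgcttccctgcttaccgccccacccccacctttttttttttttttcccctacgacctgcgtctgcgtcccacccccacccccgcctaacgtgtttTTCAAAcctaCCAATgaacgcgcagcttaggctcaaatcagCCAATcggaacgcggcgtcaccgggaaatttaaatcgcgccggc
Nup50: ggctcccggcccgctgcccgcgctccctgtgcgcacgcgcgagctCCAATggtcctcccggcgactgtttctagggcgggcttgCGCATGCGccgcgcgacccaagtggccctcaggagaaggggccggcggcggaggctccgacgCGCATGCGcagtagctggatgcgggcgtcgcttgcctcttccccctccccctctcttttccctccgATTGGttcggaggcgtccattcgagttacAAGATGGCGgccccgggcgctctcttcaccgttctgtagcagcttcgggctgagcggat
Kpna4: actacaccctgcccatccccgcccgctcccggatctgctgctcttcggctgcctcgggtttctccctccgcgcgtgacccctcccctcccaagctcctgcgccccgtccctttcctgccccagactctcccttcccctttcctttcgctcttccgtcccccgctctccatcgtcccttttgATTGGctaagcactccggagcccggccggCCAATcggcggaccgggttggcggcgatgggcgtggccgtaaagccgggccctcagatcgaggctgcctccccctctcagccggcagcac

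The capitals are CCAAT, the box bound by NF-Y, and, in Nup37 and Kpna2, TTTGAA, the letters of the CHR element known from promoters of mitotic genes. In Nup50 they are also CGCATGCG, the core of the NRF1 motif, and AAGATGGCG, the core of the YY1 motif. Both strands were searched, so that CCAAT can read ATTGG and TTTGAA can read TTCAAA, with TTTCCCGC and TTTGGCGC for E2F and CCGGAAGT for ETS factors besides, and no 2 motifs overlapped in a member's window. Windows were at hand for 30 of the 37 members (35 windows, some overlapping). CCAAT stood in 12 of the 22 falling members with a window and in 4 of the 8 others, or in 54.3% of members' windows, against 37.6% of the windows of all genes tested and 37.4% of all promoters. The NRF1 core was in 4 falling members (Nup50, Xpo5, Nup107, Nup62) and 0 of the 8 others, with 11.4% of members' windows against 3.87% for genes tested and 1.87% for all promoters. The YY1 core was in 4 falling members too (Nup188, Nup50, Nup205, Nup88) and 11.4% of members' windows, against 3.01% and 1.40%. An exact ETS match lay in 3 of the 8 others (Nup155, Nup54, Ipo4) and in 0 of the 22 falling members, and it was in 8.57% of members' windows, 8.02% of the windows of genes tested and 3.89% of all promoters. TTTGAA was in 17.1% of members' windows, 11.7% of those of genes tested and 17.9% of all promoters, and an E2F match in 2.86%, 2.83% and 1.56%. The median window of a member held 28 CpG dinucleotides, against 21 for genes tested. These matches are descriptions of letters and were not tested.

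The Y complex is the outer scaffold that is recruited to chromosomes when a pore is rebuilt. All 6 members grouped with it here fell, with a median change of -1.45 log2 units over the course. Nup98, whose transcript also encodes the Y complex protein Nup96, is counted with the central channel. Of 2 subunits outside the name rule, Sec13 fell (slope -0.077 ± 0.017) and Seh1l did not pass (slope -0.035 ± 0.021, adjusted p = 0.193), with readings of 10.12 at P0 against 10.44 at E11 for Seh1l. Nup37, a peripheral subunit of the complex, had the steepest slope of all 37 members, -0.28 ± 0.031 (adjusted p = 9.58e-05). Its level was 11.43 at E11, 10.63 at E12, 10.19 at E13, 10.05 at E14, 9.80 at E15, 9.52 at E16, 9.12 at E17, 9.06 at E18 and 9.13 at P0. It was lower at each age than at the one before up to E18, and P0 stood 4.9-fold below E11. Nup43, another peripheral subunit, read 9.26 at E11, 8.42 at E12, 8.41 at E13, 8.30 at E14, 7.76 at E15, 7.83 at E16, 7.34 at E17, 7.63 at E18 and 7.34 at P0. E11 stood apart there, with the array of E12 0.84 lower, and over the course the slope was -0.21 ± 0.032 (adjusted p = 0.000515).

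Nup85, a subunit of the short arm of the Y, stayed high at E11 and E12 and read 11.29 at E11, 11.26 at E12, 10.58 at E13, 10.64 at E14, 10.29 at E15, 10.20 at E16, 10.36 at E17, 9.80 at E18 and 9.61 at P0. Its slope was -0.20 ± 0.025 (adjusted p = 0.000162), and P0 was 3.2-fold lower than E11. Nup107, a subunit of the stem, read 9.76 at P0 against 11.00 at E11 (slope -0.16 ± 0.020). Nup160, a subunit of the long arm, read 8.35 at P0 against 9.89 at E11 (slope -0.15 ± 0.024). Nup133, the tip of the stem, is known from mouse mutants to be needed for neural differentiation. In the probe sets used it had the shallowest slope of these 6 members, -0.13 ± 0.025 (adjusted p = 0.00168). It read 9.13 at P0 against 10.45 at E11, and 9.51 at E14. The Nup133 call ended from E13 to P0 alone (adjusted p = 0.0586). A second Nup133 probe set had a slope of -0.16 ± 0.030 (limma among all probe sets fitted, adjusted p = 0.00153), so that its rank depends on the probe set.

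Of the inner ring, the scaffold that lines the channel, 3 of 4 tested members fell, and the median change was -1.44. Nup188 read 8.15 at E11, 7.75 at E12, 7.33 at E13, 6.94 at E14, 7.0 at E15, 6.69 at E16, 6.77 at E17, 6.44 at E18 and 6.27 at P0. This was a slope of -0.21 ± 0.028 (adjusted p = 0.000232) and a 3.7-fold difference between P0 and E11. Nup205, its large structural relative, fell to 10.17 at P0 against 11.98 at E11, with slope -0.19 ± 0.021 (adjusted p = 0.000109). Nup93, which both bind, had a slope of -0.17 ± 0.023 and read 9.08 at P0 against 10.52 at E11.

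Nup155, the inner ring subunit next to the membrane, did not pass (slope -0.13 ± 0.049, adjusted p = 0.0545), and its scatter around the line was wide. The probe set used read 10.15 at E11, 9.36 at E12, 9.19 at E13, 9.28 at E14, 9.02 at E15, 8.13 at E16, 9.22 at E17, 8.82 at E18 and 8.94 at P0. The E16 array lay lowest by far, and without it the gene passed (slope -0.11, adjusted p = 0.0243). It also passed without P0 (slope -0.16, adjusted p = 0.0489), while without E11 the slope was -0.071 (adjusted p = 0.305). A second Nup155 probe set gave a slope of -0.23 ± 0.027, which passed among all 18566 probe sets fitted (adjusted p = 0.000127), and read 7.03 at E16 between 7.26 at E15 and 6.83 at E17. The low E16 reading was seen in 1 of these 2 probe sets.

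The central channel is lined by Nup62, Nup54 and Nup58, and by Nup98, whose transcript also encodes the Y complex protein Nup96. Nup98 fell to 7.75 at P0 against 9.05 at E11, at a slope of -0.15 ± 0.023 (adjusted p = 0.000530), while a second probe set had one of -0.041 (adjusted p = 0.310). Nup62 fell at a slope of -0.15 ± 0.022 (adjusted p = 0.000451). Nup62 read 12.28 at E11, 12.02 at E12, 11.83 at E13, 11.61 at E14, 11.62 at E15, 11.28 at E16, 11.00 at E17, 11.15 at E18 and 11.24 at P0, and its other 3 probe sets past the filter had slopes from -0.20 to -0.16. Nup54 read 9.91 at E11, 10.30 at E12, 9.61 at E13, 10.19 at E14, 9.32 at E15, 9.89 at E16, 9.91 at E17, 9.58 at E18 and 9.83 at P0, high and low by turns, and did not pass (slope -0.037 ± 0.036, adjusted p = 0.425). Its 2 other probe sets past the filter had slopes of -0.045 and -0.066 and did not pass either. Whether Nup54 differed from Nup62 in slope was not tested.

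Both members of the cytoplasmic face (median change -0.89), both of the nuclear basket (-1.13) and the 1 of the membrane ring fell. On the cytoplasmic face, Nup214 (slope -0.13 ± 0.027), where exported messenger RNA is released, and its partner Nup88 (slope -0.096 ± 0.021) fell. Nup214 read 8.04 at P0 against 9.06 at E11 and Nup88 9.64 at P0 against 10.40 at E11. In the nuclear basket, Nup50, which helps to free cargo from importin alpha, had the larger slope and Nup153 the smaller in the probe sets used. Nup153 anchors the basket and is known to bind chromatin with Sox2 in neural progenitors of the mouse. Nup50 read 10.41 at E11, 10.21 at E12, 9.80 at E13, 9.51 at E14, 9.29 at E15, 9.22 at E16, 8.95 at E17, 8.99 at E18 and 8.76 at P0 (slope -0.20 ± 0.022, adjusted p = 6.79e-05). It was lower on every array than on the one before, except at E18. Nup153 read 11.99 at E11, 11.69 at E12, 11.63 at E13, 11.82 at E14, 11.51 at E15, 11.93 at E16, 11.47 at E17, 11.34 at E18 and 11.15 at P0 (slope -0.077 ± 0.024, adjusted p = 0.0218). Its E16 level was close to that of E11, and its call ended without E11 (adjusted p = 0.0850), E18 (0.0546) or P0 (0.111) and from E13 to P0 alone (0.0998). The difference between both slopes was not tested. Another Nup153 probe set had a slope of -0.13 ± 0.025 (limma among all probe sets fitted, adjusted p = 0.00219). A dimmer Nup153 probe set had a slope of -0.079 ± 0.039 and did not pass in that fit (adjusted p = 0.120). Other Nup50 probe sets had slopes of -0.11 and -0.16, so that the order of these genes depends on the probe set. Nup210, the membrane glycoprotein of the pore, known to be induced when mouse cells differentiate to muscle or neural precursors in culture, fell here to 8.23 at P0 against 8.93 at E11, at a slope of -0.10 ± 0.023 (adjusted p = 0.00459).

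**Figure D2:**
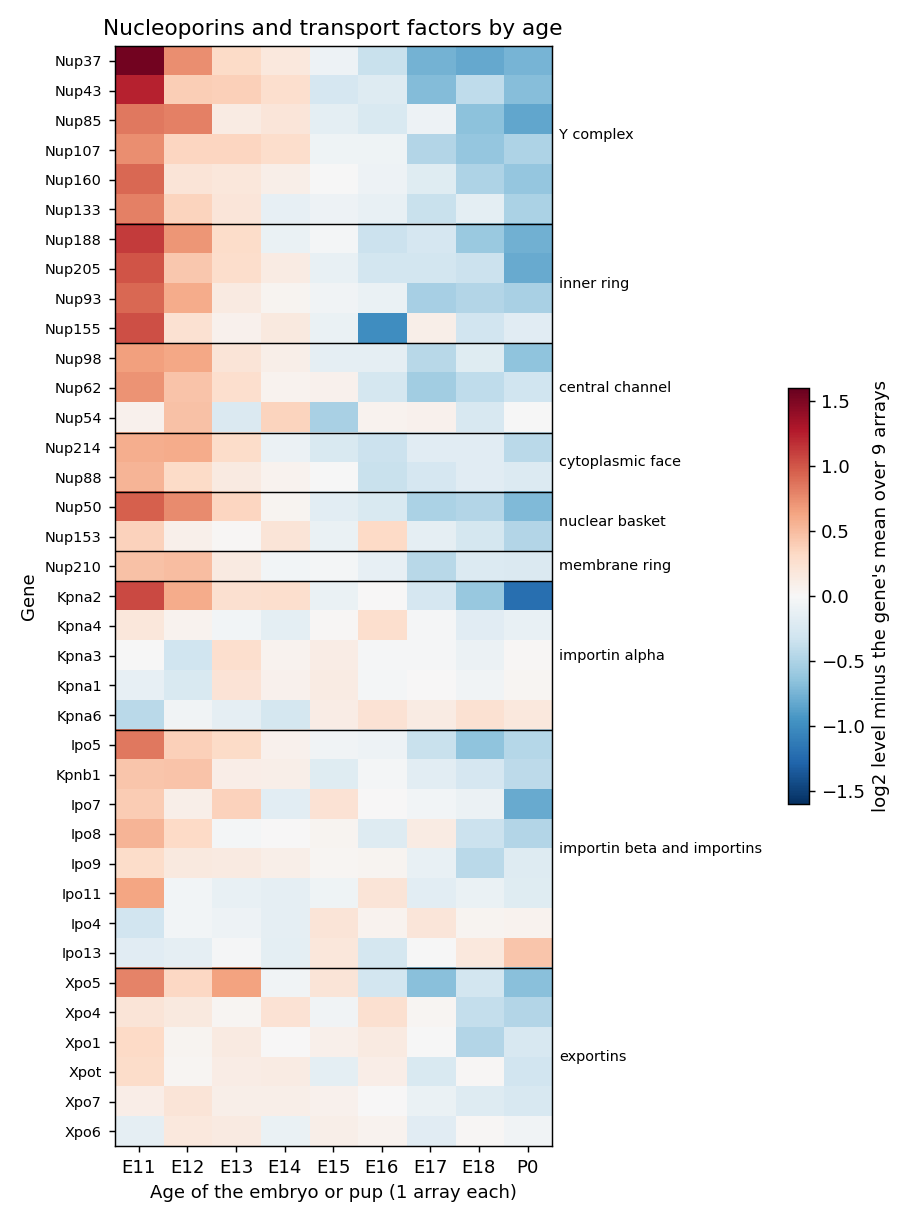
Log2 level of each of the 37 genes on each array minus its own mean over the 9 arrays, with 1 row per gene, 1 column per age and genes grouped by role. Red is above and blue below the gene's mean. The nucleoporin rows run from red at E11 to blue at P0, except Nup54, and Nup155 is bluest at E16. Kpna1, Kpna3, Kpna4 and Xpo6 stay pale, as do Ipo4 and Xpo7, of which Xpo7 passed as falling.

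Among importin alpha genes, the adaptors that read the classical import signal, Kpna2 fell, Kpna6 rose and the other 3 did not pass. Kpna2, the importin alpha of embryonic stem cells and dividing cells, read 13.75 at E11, 13.28 at E12, 12.94 at E13, 12.95 at E14, 12.58 at E15, 12.70 at E16, 12.42 at E17, 12.09 at E18 and 11.48 at P0. It dropped most between E18 and P0 and ended 4.82-fold below E11 (slope -0.23 ± 0.023, adjusted p = 5.21e-05). Kpna6 read 8.94 at E11, 9.32 at E12, 9.22 at E13, 9.10 at E14, 9.49 at E15, 9.61 at E16, 9.50 at E17, 9.62 at E18 and 9.55 at P0. All later ages stood above E11, and it was the 1 member that rose (slope 0.073 ± 0.022, adjusted p = 0.0189), a call that ended without E11 (adjusted p = 0.0937), with median centring of the arrays (0.0533) and from E13 to P0 alone (0.111).

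Kpna4 read 11.35 at E11, 11.23 at E12, 11.13 at E13, 11.02 at E14, 11.20 at E15, 11.44 at E16, 11.16 at E17, 11.00 at E18 and 11.05 at P0 and did not pass (slope -0.023 ± 0.020, adjusted p = 0.361). Kpna1, the importin alpha known to replace Kpna2 when mouse embryonic stem cells become neurons, read 9.83 at E11, 9.73 at E12, 10.18 at E13, 10.03 at E14, 10.09 at E15, 9.93 at E16, 9.98 at E17, 9.91 at E18 and 9.998 at P0, and Kpna3 read 10.39 at E11, 10.08 at E12, 10.66 at E13, 10.45 at E14, 10.52 at E15, 10.38 at E16, 10.37 at E17, 10.30 at E18 and 10.42 at P0. Both wavered within 0.58 log2 units with slopes of 0.012 ± 0.021 and 0.0021 ± 0.023 (adjusted p = 0.664 and 0.950), and neither sign was stable. Other probe sets of these genes pointed down. The 3 other Kpna1 probe sets had slopes of -0.091, -0.062 and -0.092, each past the threshold among all probe sets fitted (adjusted p = 0.00379, 0.0445 and 0.0435). The 2 other Kpna3 probe sets had slopes of -0.083 and -0.13 and did not pass (adjusted p = 0.182 and 0.0508). These were the 5 of 33 other probe sets past the filter whose slope had the opposite sign to the one used. All 22 other probe sets of members that fell had negative slopes.

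The difference between Kpna2 and each of the other importin alpha genes was tested on the log2 difference within each array, against age, with an exact permutation test over all 362880 orders of the 9 arrays (two-sided, 4 pairs, Benjamini-Hochberg). Kpna2 minus Kpna1 had a slope of -0.24 ± 0.036 (exact p = 0.000154, adjusted p = 0.000206). Against Kpna3 the slope was -0.23 ± 0.038 (exact p = 0.000265, adjusted p = 0.000265). It was -0.21 ± 0.023 against Kpna4 and -0.31 ± 0.030 against Kpna6 (adjusted p = 5.51e-05 for each in the exact permutation test). Kpna2 thus fell relative to all 4. With all probe sets of a gene averaged, the slope against Kpna1 was -0.17 (exact permutation test, adjusted p = 0.000786) and that against Kpna3 -0.16 (0.00551). The ratio of a pair shows unequal change and does not show that the other gene stayed level.

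**Figure D3:**
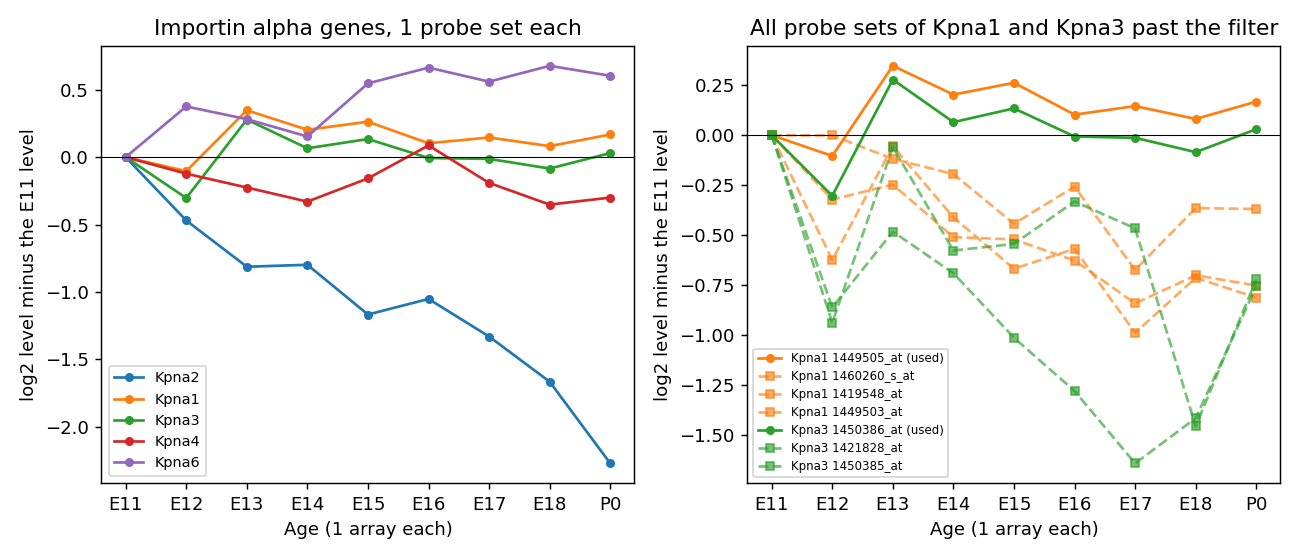
Left, log2 level minus the E11 level of the 5 importin alpha genes at each age, 1 array and 1 probe set each. Kpna2 ends 2.27 below its E11 level and Kpna6 0.60 above. Right, every probe set of Kpna1 (4) and Kpna3 (3) past the filter on the same scale, where the probe sets used (solid) lie above the others (dashed) from E13 on.

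Importin beta and the other importins, which bind cargo or an adaptor and the pore, fell in 5 of 8 cases, with a median change of -0.68. Kpnb1, the importin beta that works with importin alpha, read 12.55 at E11, 12.56 at E12, 12.21 at E13, 12.19 at E14, 11.91 at E15, 12.07 at E16, 11.93 at E17, 11.83 at E18 and 11.68 at P0 (slope -0.10 ± 0.016, adjusted p = 0.000588). Ipo5, known for importing histones and ribosomal proteins, had the steepest slope of this group, -0.16 ± 0.019 (adjusted p = 0.000121). It read 12.50 at E11, 12.04 at E12, 11.96 at E13, 11.72 at E14, 11.60 at E15, 11.57 at E16, 11.30 at E17, 11.01 at E18 and 11.20 at P0, and P0 was 2.48-fold below E11. Ipo9, a carrier of histones and actin, had a slope of -0.072 ± 0.017 (adjusted p = 0.00696) in the probe set used, while its 2 other probe sets had slopes of -0.15 each.

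Ipo7, which carries ribosomal proteins and histone H1 with importin beta, read 11.46 at E11, 11.14 at E12, 11.42 at E13, 10.88 at E14, 11.29 at E15, 11.06 at E16, 11.01 at E17, 10.95 at E18 and 10.25 at P0. The level was uneven up to E18 and lowest at P0, and the call (slope -0.10 ± 0.030, adjusted p = 0.0183) ended without P0 (slope -0.058, adjusted p = 0.115) or E11 (0.0592). A second Ipo7 probe set had a slope of -0.20 ± 0.063 (limma among all probe sets fitted, adjusted p = 0.0250). It read 6.19 at P0 against 8.41 at E11. Ipo8, a relative of Ipo7, read 8.93 at P0 against 9.94 at E11 (slope -0.099 ± 0.024, adjusted p = 0.00701). The calls of Ipo7 and Ipo8 also ended by exact rank correlation (0.0535 for each), and those of Ipo7 (0.0559), Ipo8 (0.170) and Ipo9 (0.0538) from E13 to P0 alone. Ipo11 (slope -0.053 ± 0.029, adjusted p = 0.158), Ipo4 (0.041 ± 0.020, adjusted p = 0.114) and Ipo13 (0.056 ± 0.026, adjusted p = 0.0972) did not pass. Ipo11 stood at 10.10 at E11 and between 9.29 and 9.69 on the later arrays, and without E11 its slope was -0.0091 (adjusted p = 0.797). Ipo13, a carrier that works in both directions, read 8.16 at E11, 8.20 at E12, 8.33 at E13, 8.19 at E14, 8.53 at E15, 8.06 at E16, 8.34 at E17, 8.52 at E18 and 8.79 at P0. Its P0 reading was the highest, and without the low E16 array it passed upward (adjusted p = 0.0453), while without P0 the slope was 0.033 (adjusted p = 0.394).

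Exportins all had negative slopes, and 3 of 6 passed, with a median change of -0.48. Xpo5, which exports precursors of microRNAs, was the steepest (slope -0.18 ± 0.030, adjusted p = 0.00109). It read 9.54 at E11, 9.07 at E12, 9.39 at E13, 8.69 at E14, 8.95 at E15, 8.45 at E16, 8.08 at E17, 8.46 at E18 and 8.08 at P0, with E13 above its neighbours, and ended 2.76-fold below E11. Xpo1, the main exportin of proteins with leucine-rich export signals, changed little in size in the probe set used (slope -0.067 ± 0.020, adjusted p = 0.0190). It read 12.74 at E11, 12.47 at E12, 12.57 at E13, 12.42 at E14, 12.50 at E15, 12.56 at E16, 12.42 at E17, 11.95 at E18 and 12.17 at P0, and only E18 and P0 lay clearly below the rest. This call ended without E11 (adjusted p = 0.0768), E18 (0.0528) or P0 (0.0524) and from E13 to P0 alone (0.0753). Another Xpo1 probe set, of mean 10.76, had a slope of -0.11 ± 0.022 (limma among all probe sets fitted, adjusted p = 0.00268). It read 10.50 at P0 against 11.42 at E11. A dimmer Xpo1 probe set, of mean 5.37, had a slope of -0.049 ± 0.048 and did not pass in that fit (adjusted p = 0.428).

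Xpo7 fell by a small amount (slope -0.052 ± 0.013, adjusted p = 0.00715), and its level was 12.33 at P0 against 12.69 at E11. Xpot, the exportin of transfer RNA, had a slope of -0.053 ± 0.020 (adjusted p = 0.0530) and stood at the edge of the threshold. It passed under 6 of 21 alternatives run, among them exact rank correlation (adjusted p = 0.0458) and embryo sex in the fit (0.0387). The others were without E16, without E18, with P0 at day 20 and with median centring. Xpo4, which also imports Sox2 in the mouse, had a slope of -0.072 ± 0.030 (adjusted p = 0.0692). It passed under 4 of 21 alternatives run. They were quantile normalization (limma, adjusted p = 0.0348), median centring, moderated variance without a trend, and the fit without E16. Xpo6, the exportin of actin, read 9.39 at P0 against 9.30 at E11 and did not pass (slope -0.0099 ± 0.021, adjusted p = 0.726).

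The median nucleoporin was lower at each age than at the one before up to E18, with its largest steps up to E13. The median carrier changed less up to E16 than after it. Relative to E11, the median nucleoporin stood -0.31 log2 units away at E12, -0.61 at E13, -0.76 at E14, -0.91 at E15, -1.01 at E16, -1.14 at E17, -1.34 at E18 and -1.31 at P0. At E13 all 18 were below their E11 level, and from E15 to P0 they all were. Of all 10864 genes tested, 5434 were below their E11 level at E13 and 5315 at P0. The median carrier stood -0.13 away at E12, -0.18 at E16 and -0.58 at P0, with 13 of 19 below E11 at P0. Between E11 and E12, 28 of the 37 members (75.7%) were lower on the later array, against 54.8% of all genes. E11 was the highest array for 24 members and P0 the lowest for 18, and the share of all genes for these is not given here. These counts rest on single arrays and have no test.

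No member departed from a straight line by test. The squared term of age passed for 0 of 37 members in limma (6.86% of all genes) and for 4 at an unadjusted p under 0.05. They were Nup37 (squared term 0.033 ± 0.0094, adjusted p = 0.0633), Nup155, Nup50 and Nup62. The fitted curves of Nup37, Nup50 and Nup62 fell more steeply early than late. That of Nup155, with its low E16 reading, turned upward at day 16.5. From E13 to P0 alone, 16 of the 37 members fell and 0 rose, where 11.2% of all genes fell and 14.0% rose. At an unadjusted p under 0.05 in that fit, 1 member rose. The 16 were 11 of the 18 nucleoporins and 5 of the 19 carriers.

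**Figure D4:**
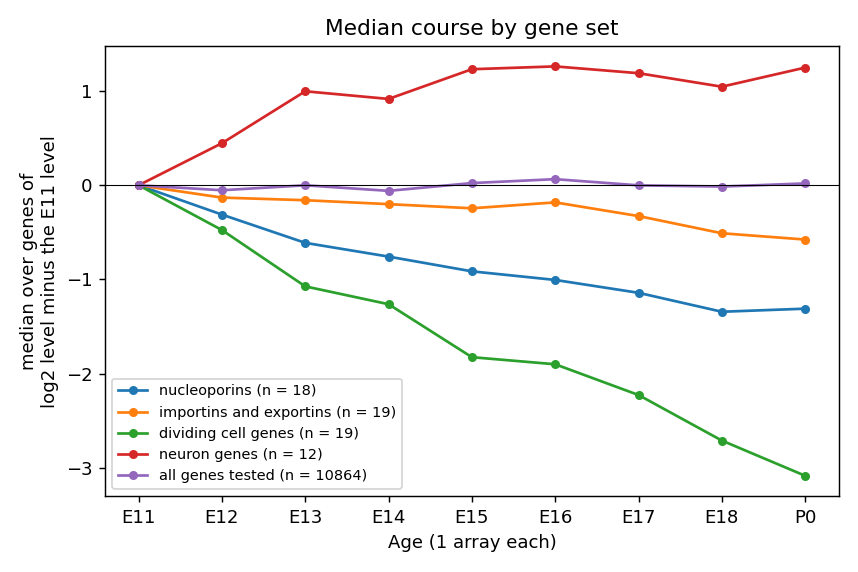
Median over the genes of a set of the log2 level minus the E11 level, at each age (1 array each), for 18 nucleoporins, 19 importins and exportins, 19 genes of dividing cells, 12 genes of neurons and all 10864 genes tested. At P0 the medians were -1.31 for nucleoporins, -0.58 for carriers, -3.08 for dividing cell genes, 1.25 for neuron genes and 0.020 for all genes.

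Markers of other cell states moved on the same arrays. All 19 tested genes of dividing cells fell, with a median change of -2.92 log2 units over the course, and their median level was 11.85 at E11, 11.16 at E12, 10.64 at E13, 10.49 at E14, 10.22 at E15, 9.95 at E16, 9.62 at E17, 9.41 at E18 and 8.77 at P0. It declined at every step, as the median nucleoporin did up to E18. Of 12 neuron genes 8 rose, with a median change of 0.94. Radial glia genes fell in 6 of 8 cases and rose in 2 (Fabp7 and Slc1a3), with a median change of -1.10. The list of bulb neurons rose in 8 of 10 cases and fell in 1, with a median change of 1.88. Its mitral cell gene Tbx21 rose and read 9.28 at P0 against 2.40 at E11. The 1 that fell was Tbr1, which read 10.29 at P0 against 11.57 at E11. Eomes did not pass (slope 0.044, limma adjusted p = 0.416). Red cell genes fell in 4 of 5 cases, with a median change of -10.91. Genes of the meninges rose in 8 of 9 cases (median change 3.95) and those of ensheathing glia in 4 of 4 (5.99). Microglia genes rose in 5 of 5 cases (2.62), and of endothelial genes 1 of 3 rose. Hba-a1, Aif1, Pecam1 and Cdh5 did not pass the level filter. The part of any of these in the fall of the pore genes was not tested. Females were the animals of E11, E12, E15 and P0, by Xist and the Y-linked genes, and with sex in the fit 26 members fell and 1 rose. Without sex in the fit 21.9% of all genes fell and 25.2% rose, and their share with it is not given here.

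Other genes of nuclear transport, from lists set down by name, mostly fell too. Of 37 tested, 24 fell, 1 rose and 12 did not pass, beside the 21.9% and 25.2% of all genes, and their median change over the course was -0.64 log2 units. In the Ran system 5 of 7 fell. Rcc1, the exchange factor that loads Ran with GTP on chromatin, was the steepest (slope -0.34 ± 0.042, adjusted p = 0.000172), and it read 8.70 at E11, 7.96 at E12, 7.83 at E13, 7.46 at E14, 7.22 at E15, 7.20 at E16, 5.97 at E17, 5.74 at E18 and 6.27 at P0. Ranbp1 (slope -0.21 ± 0.034), a cofactor of the Ran GTPase-activating protein, and Rangrf (-0.16 ± 0.033), a Ran-binding protein, fell too, as did Ranbp3 (-0.063 ± 0.020), a cofactor of Xpo1. Ran itself fell (slope -0.072 ± 0.0093, adjusted p = 0.000212) and read 14.44 at P0 against 15.01 at E11. Ranbp2, the large nucleoporin of the cytoplasmic filaments, and Rangap1 did not pass (adjusted p = 0.211 and 0.420).

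Of 6 other carriers 4 fell. They were Cse1l (slope -0.10 ± 0.025), which returns importin alpha to the cytoplasm, Tnpo3 (-0.088 ± 0.027), which imports splicing factors, Tnpo1 (-0.080 ± 0.023), which imports RNA-binding proteins, and Snupn (-0.075 ± 0.022), the adaptor of spliceosomal particles. Among 10 other pore proteins 6 fell. Aaas, a nucleoporin held by Ndc1, was 9.77 at E11, 9.21 at E12, 8.71 at E13, 8.48 at E14, 8.49 at E15, 7.99 at E16, 7.62 at E17, 7.44 at E18 and 7.57 at P0, which gave a slope of -0.28 ± 0.029 (adjusted p = 5.60e-05). Ahctf1 (slope -0.14 ± 0.021), which brings the Y complex to chromatin, Nupl1 (-0.14 ± 0.018), the gene of the channel protein Nup58, the membrane protein Ndc1 (-0.13 ± 0.022), Pom121 (-0.093 ± 0.028) and Sec13 (-0.077 ± 0.017) fell as well. Seh1l (slope -0.035 ± 0.021), like Sec13 a subunit of the Y complex, Nupl2, Gle1 and Rae1 did not pass. In the list of messenger RNA export 9 of 14 fell and 1 rose. The steepest were Nxt1 (slope -0.24 ± 0.029, adjusted p = 0.000131), the partner of the export receptor Nxf1, and, upward, its relative Nxt2 (slope 0.19 ± 0.031, adjusted p = 0.000692). Nxt1 read 10.24 at E11, 9.54 at E12, 9.42 at E13, 9.05 at E14, 8.94 at E15, 8.58 at E16, 8.18 at E17, 8.27 at E18 and 8.31 at P0. Nxt2 read 7.13 at E11, 6.94 at E12, 7.59 at E13, 7.87 at E14, 7.79 at E15, 8.38 at E16, 8.45 at E17, 8.24 at E18 and 8.49 at P0, and its readings from E16 on were above all earlier ones. Thoc6 (-0.16 ± 0.022) and Alyref (-0.15 ± 0.055, adjusted p = 0.0432), both of the complex that couples transcription to export, fell. Whether Nxt1 and Nxt2 differ in slope was not tested as such.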

How the data were processed

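Levels were deposited log2 expression values per probe set, for which the submitters' processing notes name GCRMA. Its version and settings are not given in the sources used here. That they are log2 was taken from their range. Of 45101 probe sets, 34958 carried 1 symbol in the platform annotation. Probe sets at log2 5 or more on at least 2 of 9 arrays were kept, and for each gene the one of highest mean (10864 genes). A straight line over age (P0 as day 19) was fitted to every gene by limma 3.58.1 under R 4.3.3 (moderated variance with a trend, two-sided, Benjamini-Hochberg over all genes, threshold 0.05), which left 7 residual degrees of freedom. Slopes carry their moderated standard error, except those of Kpna pairs, which carry that of a plain line. The fits were tested on simulated data. All 37 members matched RefSeq by gene ID with unchanged symbols. The members, the lists and the tests were chosen with earlier results of these data known. Values on every array are given for the steepest members past the threshold, all Kpna genes and those of largest squared term, and for some chosen after their values were seen (Nup62, Nup54, Nup153, Kpnb1, Ipo5, Ipo7, Ipo13, Xpo5, Xpo1). The number of arrays limits the precision. Alternatives are in the closing section.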

Additional observations from a re-analysis of the deposited data

Results flagged for a closer look

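Probe sets that carry a member's symbol together with another gene's were left out of the comparisons, and 3 of them read above the level filter. The probe set shared by Ipo4 and Tm9sf1 averaged 9.12 over the 9 arrays and had a slope of 0.037 log2 units per day. The one shared by Xpo4 and Lats2 averaged 8.93 with a slope of -0.11, against -0.072 for the Xpo4 probe set used. The one shared by Kpna4 and 9630025H16Rik averaged 9.30 with a slope of -0.10, against -0.023 for the Kpna4 probe set used. None of these slopes was tested.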

How the results depend on the processing

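With each array left out in turn, 22 to 28 members fell and 0 to 2 rose, the 0 without E11 and the 2 without E16. Of all genes tested, 1803 to 2335 fell and 2218 to 2764 rose in these runs. Of other transport genes 20 to 24 fell and 1 rose each time. Of the 25 members that fell, 16 did so under every alternative run. From E13 to P0 alone 16 members fell and 0 rose (limma, 1 at an unadjusted p under 0.05), and other transport genes that fell numbered 16, while 1219 of all genes fell and 1525 rose against 2382 and 2743 over the whole course. With median centring 28 members fell and 0 rose (1 at an unadjusted p under 0.05). Without centring 21.9% of all genes fell and 25.2% rose, and their share with it is not given here. Without probe sets of suffix _x_at, _s_at or _a_at, 2 other transport genes rose. The slope of Kpna1 turned negative without E12 (-0.0016), with median centring (-0.0058), over the mean of its probe sets (-0.058, adjusted p = 0.0300) and from E13 to P0 (-0.032). With an array left out, it lay between -0.0016 and 0.022. That of Kpna3, from -0.019 to 0.013 with an array left out, turned negative without E12 (-0.019), by rank correlation (rho -0.13), with embryo sex (-0.0022), with median centring (-0.016), over the mean of its probe sets (-0.069) and from E13 to P0 (-0.043), and that of Nup54 was 0.00049 from E13 to P0. Nup88, Nup210 and Nup214 no longer passed from E13 to P0 (adjusted p = 0.131, 0.140 and 0.119). Among other members that did not pass, the slope of Nup54 was -0.013 without E12, and without E11 that of Ipo4 was 0.026, of Kpna4 -0.014 and of Xpo6 -0.029. The causes were not tested. With an array left out, Kpna2 fell relative to Kpna1 by slopes from -0.26 to -0.22, Kpna3 from -0.25 to -0.20, Kpna4 from -0.22 to -0.18 and Kpna6 from -0.32 to -0.28. All 4 pairs passed under all 16 alternatives run, but some of these runs could not change the result. Setting values under log2 5 to 5 and leaving out the suffixed probe sets left every pair's values as they were. The mean of all probe sets did the same for Kpna4 and Kpna6. The course of Kpna7 and Nup210l, below the level filter, is not known from these arrays. No paired analysis was possible because each age is 1 array and the labels give no replicate numbers.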
